A study of Mus musculus with 12 samples.

Results

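Adding the compound K35 to doxorubicin was examined in mouse liver by setting the 3 DOX + K35 libraries (C1, C2 and C4) against the 3 DOX libraries (B1, B3 and B4). These were 6 of the 12 poly-T selected RNA-seq libraries of the series, and the genes were the 3317 of 3799 rows of the deposited table whose mean over the 12 value columns was at least 1. The table names no unit, and its values are called FPKM here, a fragment count normalized for transcript length and library size. Male C57BL/6J mice aged 8 weeks received doxorubicin, 10 mg/kg into the peritoneum on days 0 and 7, in both groups. From day 2 on, alternate-day gavage delivered K35 (50 mg/kg) in the DOX + K35 group and vehicle in the DOX group, until the livers were taken on day 20. Saline mice and doxorubicin mice given the compound K27 filled the remaining 6 columns and entered the fit, where they add to the estimate of the spread. The labels list libraries B1 to B3 and C1 to C3, whereas the table holds B4 and C4 in place of B2 and C3, and the columns B4 and C4 could therefore be assigned to a group by letter but not to a labelled sample. Nothing in the labels said whether the libraries of a group came from separate animals. The p-values therefore set a difference against the spread between libraries within groups, over all groups of the fit. They cannot be read as set against a spread between animals.

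Doxorubicin is an anthracycline that damages DNA and is used here as a model of premature aging. The compound K35 is known by its code name and was chosen in the study for dispersing aggregates of pyruvate kinase, an enzyme of glycolysis. Hepatocytes make most of the liver's RNA, and their work includes glucose and lipid metabolism, urea synthesis, secretion of plasma proteins and the oxidation and conjugation of foreign compounds. Mitochondria carry a small genome of their own that encodes a few subunits of the respiratory chain, while the nucleus encodes the others.

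In DOX + K35 livers, the median genes of most metabolic, detoxification, lysosomal and protein-making lists stood higher than in DOX livers, while those of mitochondrially encoded genes, unnamed newly assembled loci, zinc finger genes and erythroid genes stood lower. As deposited, 1527 genes were higher (46.0% of those tested) and 356 were lower (10.7%) at an adjusted p under 0.05 in limma with Benjamini-Hochberg adjustment over all 3317 genes. The median gene was higher by 0.46 on the log2(FPKM + 1) scale, on which all changes are given here as DOX + K35 minus DOX. After median-ratio scaling, which divides each library by its median ratio to the geometric mean, the median was -0.014, and 1255 genes were higher (37.8%) and 1366 lower (41.2%). Without C4, 1549 were higher (46.7%) and 556 lower (16.8%) as deposited, and with scaling too 1287 were higher (38.8%) and 1371 lower (41.3%).

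Genes called the same way in these 4 settings (as deposited, scaled, without C4, and both) numbered 1146 higher (34.5%) and 312 lower (9.41%). Below, a gene "rose" or "fell" if it was called in all 4, and "passed" refers to a single setting. Many genes named below were picked because they rose or fell without overlap between the compared groups. For these, the lack of overlap follows from the choice and is no separate result. The percentage after a count of rises or falls is the share of the genes tested in that list, to be read against these shares of all genes, and no difference between such shares was tested. Counts of genes that passed are to be read against the shares of all genes in the same setting. The rows are the submitters' selection of genes that differ somewhere in the series. All these shares therefore refer to that selection and not to the liver transcriptome. The series that served for the selection includes the libraries compared here, so the adjusted p-values do not bound the share of false calls. Here and below, they only set the change of a gene against the spread between libraries, within that selection. No gene was called in opposite directions before and after scaling, all 1255 genes higher after scaling were also higher as deposited, and all 356 genes lower as deposited were also lower after scaling. Leaving out 1 library moved the count of lower genes most. It was 169 without B3, 189 without C1 and 159 without C2, whereas without B4 it was 390 (11.8%), with 1253 higher (37.8%).

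The 3 DOX libraries differed from each other more than C1 and C2 did. Mitochondrially encoded genes took 62.2% (B1), 75.3% (B3) and 83.3% (B4) of the summed FPKM in the DOX libraries and 37.9% (C1), 39.5% (C2) and 48.7% (C4) in the DOX + K35 libraries, against 48.2% to 61.9% in Saline. The values of the compared groups did not overlap, and the exact two-sided permutation test gave p = 0.1, the smallest that 3 against 3 allows. B4 was the lowest of the 6 libraries for 98.5% of the genes that rose, against 57.2% of all genes, and B1, B3 and B4 stood in that descending order for 95.8% of them, against 61.4% of all genes. After scaling, B4 was the lowest for 73.2% of the genes that rose, against 33.5% of all genes. Genes that rose were picked for low DOX values, so the share of all genes is not an even comparison. After scaling and without B4, 586 genes were higher (17.7%) and 998 lower (30.1%). Of the genes that rose, 572 of 1146 were also called without B4 both as deposited and scaled, and of those that fell, 261 of 312. Among the DOX + K35 libraries, C1 and C2 had a Pearson r of 0.991 across genes and C4 had 0.934 and 0.923 with them (a description, as genes are not replicates). A high mitochondrial share and the DOX group cannot be told apart in these 6 libraries.

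The change also varied with transcript length, GC content and level. Over 5 equal bins of the 3129 genes with a known transcript, the median change was -0.06 for the shortest transcripts, 0.98, 0.88 and 0.76 for the next 3 bins and 0.069 for the longest. By GC content it was 0.88 in the lowest bin and -0.21 in the highest, and by mean level, over all genes, it was -0.19 in the lowest bin and 1.11 in the highest. With both trends removed within each library, 955 genes were higher (30.5%) and 943 lower (30.1%), 835 of the 1137 genes that rose and had a length were still called, and 223 of the 247 that fell. The part of length and GC content in the changes below was not tested beyond these counts.

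**Figure D1:**
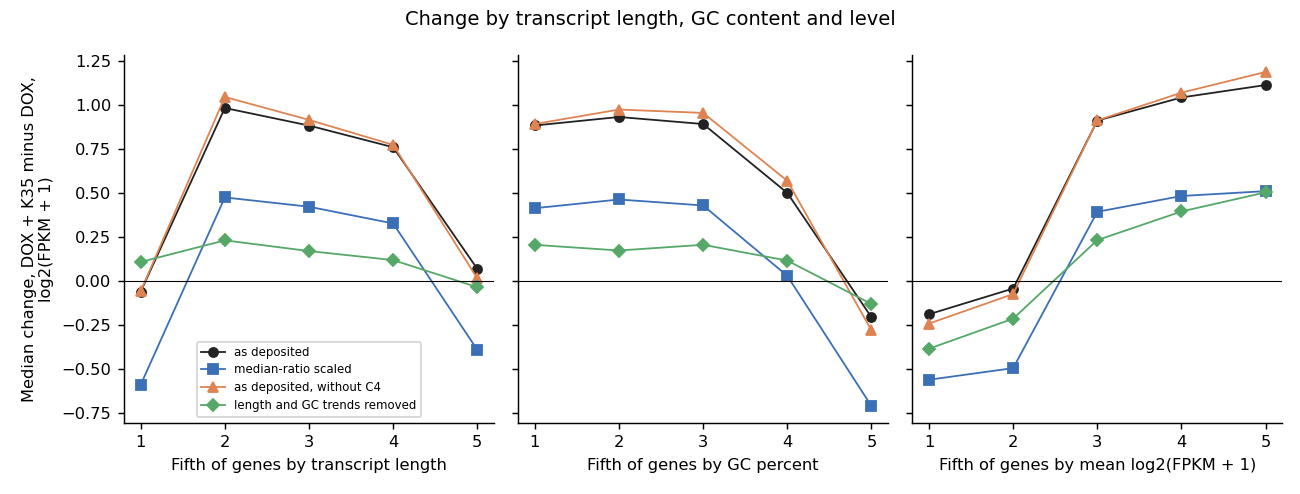
Median change of DOX + K35 minus DOX on the log2(FPKM + 1) scale (y axis) in 5 equal bins of genes ordered by transcript length, GC content or mean level (x axes), in 4 settings shown by marker. As deposited, the middle 3 bins by length and the lowest 3 by GC content were between 0.76 and 0.98, while the shortest transcripts and the GC-richest ones were at -0.06 and -0.21, and with both trends removed the bins by length lay between -0.035 and 0.23 and those by GC content between -0.13 and 0.21.

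Among 47 functional lists with at least 7 genes tested and lengths for most of them, 33 had a median above that of all genes as deposited, after scaling, without C4 and with the length and GC trends removed, and 9 had one below it in each. The lists are described by counts and medians beside those of all genes, with no test of a list.

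**Figure D2:**
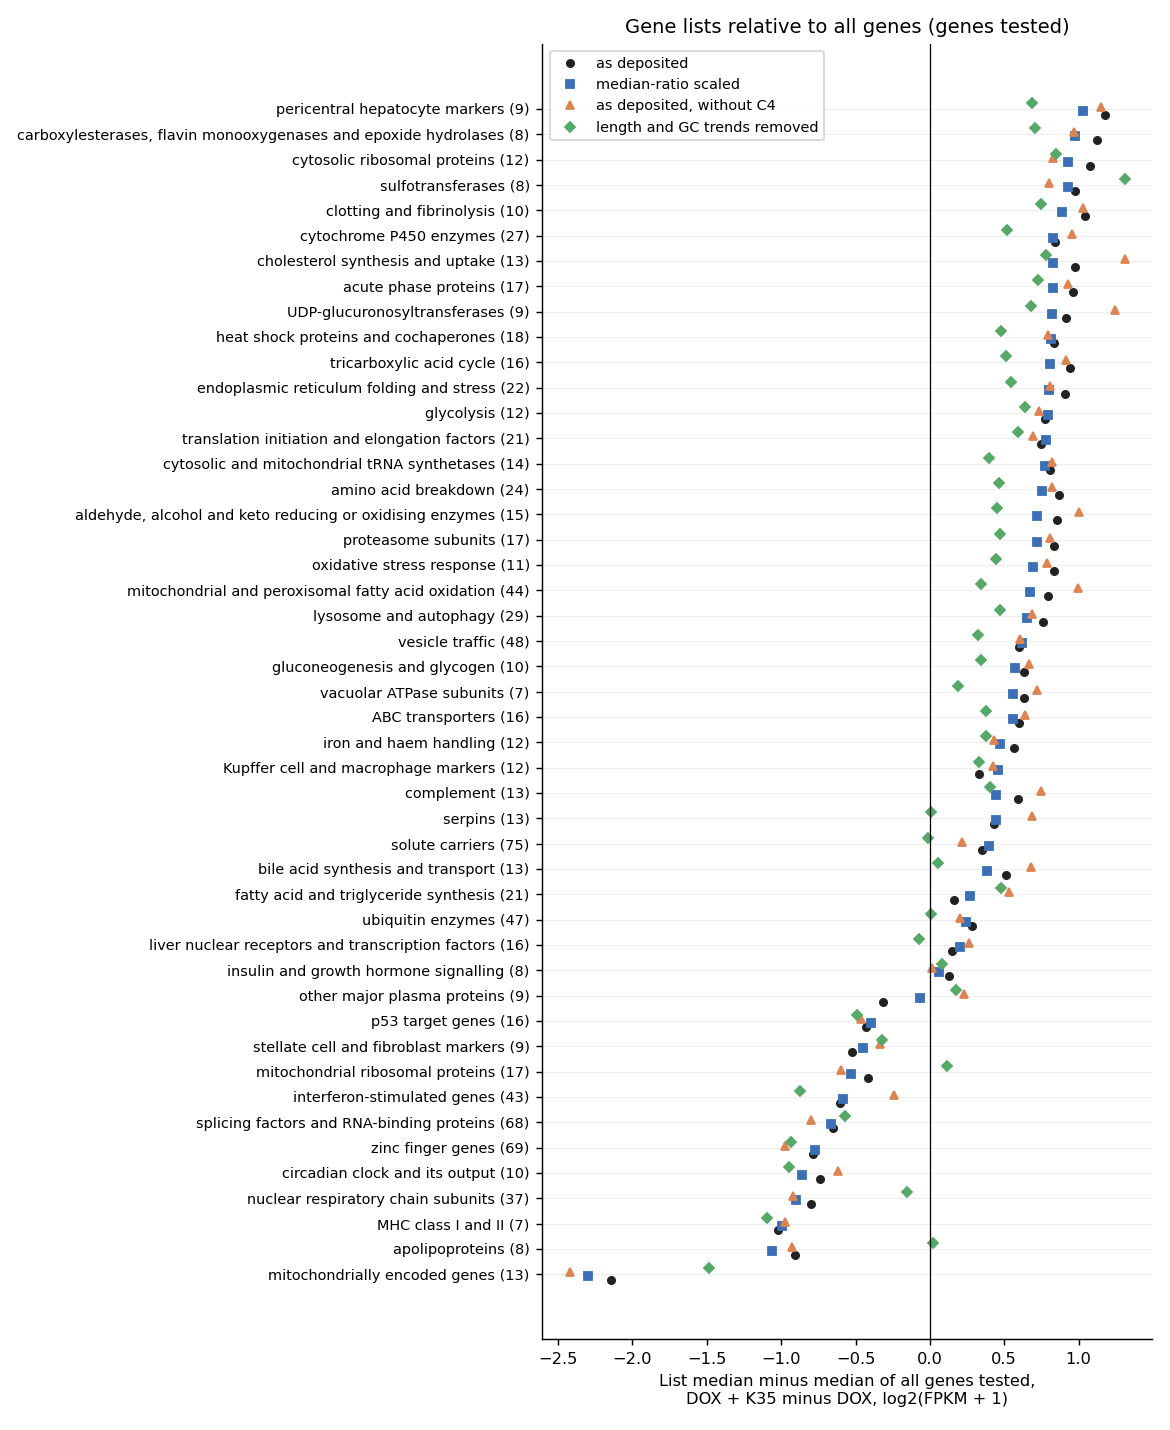
Median change of each gene list minus the median of all genes tested (x axis, log2(FPKM + 1), DOX + K35 minus DOX), one list per line with its number of genes tested in parentheses and 4 settings by marker. The 9 lists left of 0 in all 4 are mitochondrially encoded genes, nuclear respiratory chain subunits, splicing factors, zinc finger genes, clock genes, p53 targets, interferon-stimulated genes, MHC genes and stellate cell markers.

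Most genes of sterol synthesis and uptake rose, but after scaling and without B4 the share that passed higher was below that of all genes. Of the 13 sterol genes tested, 12 passed higher and 0 lower as deposited, 9 rose (69.2%), and their median was 1.43 as deposited and 0.82 scaled. Without B4, 9 passed higher as deposited and 2 after scaling, where 17.7% of all genes passed higher. The median of the 13 in that last setting was 0.63, against -0.045 for all genes.

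The sterol genes showed C4 apart from C1 and C2. *Idi1*, an isomerase early in the isoprenoid pathway, had 44.0, 21.1 and 14.9 FPKM in the DOX libraries B1, B3 and B4 and 182, 167 and 35.5 FPKM in the DOX + K35 libraries C1, C2 and C4, the order used throughout. C4 fell between B1 and B3 here, although the gene passed in all 4 settings (log2 change 2.05 as deposited and 2.80 without C4). *Sqle*, the epoxidase that commits squalene to sterols, had 39.9, 26.4 and 9.64 FPKM in DOX against 92.6, 86.2 and 34.7 FPKM in DOX + K35, and C4 again lay within the DOX range. *Npc2*, a lysosomal cholesterol carrier, had 11.6, 5.87 and 2.17 against 22.4, 22.2 and 15.9 FPKM without overlap, and rose by 1.69 ± 0.42 (SE, n = 3 per group, as for all changes given with ±, limma adjusted p = 0.00619).

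The promoters below are those of the 3 sterol genes with the largest rises among the 9 of 13 that matched the promoter table, and are shown because these genes moved together. They are the 250 bases before the start site in RefSeq (GRCm38.p6), with the CCAAT box (CCAAT, searched on both strands, where the reverse strand reads ATTGG) in capitals. Idi1 is chr13:8885356-8885605 (plus strand), Npc2 is chr12:84773113-84773362 (minus strand) and Pmvk, the kinase that phosphorylates phosphomevalonate, is chr3:89454291-89454540 (plus strand).
Idi1: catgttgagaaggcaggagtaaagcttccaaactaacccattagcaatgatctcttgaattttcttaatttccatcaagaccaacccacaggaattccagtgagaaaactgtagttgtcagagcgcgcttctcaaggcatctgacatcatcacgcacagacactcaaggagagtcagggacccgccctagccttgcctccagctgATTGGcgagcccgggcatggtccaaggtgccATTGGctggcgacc
Npc2: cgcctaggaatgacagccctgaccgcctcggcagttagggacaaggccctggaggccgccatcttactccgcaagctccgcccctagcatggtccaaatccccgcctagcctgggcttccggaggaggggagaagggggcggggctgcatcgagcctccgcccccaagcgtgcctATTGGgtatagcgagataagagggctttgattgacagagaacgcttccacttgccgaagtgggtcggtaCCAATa
Pmvk: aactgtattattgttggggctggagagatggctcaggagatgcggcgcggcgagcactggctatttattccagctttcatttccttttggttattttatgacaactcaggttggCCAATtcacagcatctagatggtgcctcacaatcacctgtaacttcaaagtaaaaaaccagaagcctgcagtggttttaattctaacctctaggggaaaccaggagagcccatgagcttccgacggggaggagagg
The CCAAT box was in 8 of 12 promoters of the sterol genes (66.7%), against 37.4% of all 32851 promoters, each searched from 250 bases before to 50 after the start. This share is not particular to the sterol genes. It was 66.7% for the tricarboxylic acid cycle, 77.3% for amino acid breakdown and 90.0% for clock genes. For acute phase genes it was 17.6% and for clotting genes 0%. The sterol regulatory element, searched as TCACNCCAC, was in 0 of the 12 and in 1.24% of all promoters. A match is a run of letters and not a binding site. *Pmvk* itself had 22.0, 14.9 and 5.502 FPKM in DOX and 64.9, 58.0 and 19.4 FPKM in DOX + K35, where C4 lay below B1.

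Of the genes of gluconeogenesis and glycogen, a share close to that of all genes rose (34.5%), and of those of glycolysis a larger share. Of 10 genes of gluconeogenesis and glycogen, 8 passed higher and 0 lower as deposited, 4 rose (40%), and the median was 1.09 as deposited and 0.55 scaled. *Fbp1*, fructose-1,6-bisphosphatase of gluconeogenesis, had 298, 130.5 and 44.1 FPKM in the DOX libraries and 658, 735 and 486 FPKM in the DOX + K35 libraries. *Gbe1*, the glycogen branching enzyme (GRCm38 chr16:70313949-70569716, plus strand), had 12.8, 5.92 and 4.24 against 46.5, 43.8 and 33.0 FPKM. Neither gene overlapped between groups, and they rose by 2.35 ± 0.58 and 2.39 ± 0.48 (limma adjusted p = 0.00618 and 0.00497). Without B4, 5 passed higher as deposited and 4 after scaling.

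Of 12 glycolysis genes tested, 8 passed higher as deposited and 7 rose (58.3%), with changes from -0.79 to 2.34 and a median of 1.23 (0.78 scaled). *Ldha*, which makes lactate from pyruvate, had 179, 84.8 and 18.1 FPKM in DOX, 349.7, 369 and 297 FPKM in DOX + K35 and 368, 277 and 325 FPKM in Saline. The DOX + K35 values thus lay around those of Saline, and B4 was far below the other DOX libraries. *Ldha* rose by 2.34 ± 0.60 and *Pgk1*, an ATP-forming kinase of the pathway, by 2.24 ± 0.53 (limma adjusted p = 0.00693 and 0.00579). *Eno1b*, a copy of the enolase gene *Eno1*, rose by 2.63 ± 0.47 (limma adjusted p = 0.00496), but reads of near-identical copies may have been split between them. Without B4, 7 passed higher as deposited and 4 after scaling. The pyruvate kinase gene *Pkm* was not analysed here.

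Of 16 genes of the tricarboxylic acid cycle, 16 passed higher as deposited and 11 rose (68.8%), with a median of 1.40 (0.80 scaled). *Sdha* and *Sdhd*, subunits of succinate dehydrogenase, which also serves as complex II of the respiratory chain, rose by 2.31 ± 0.58 and 2.003 ± 0.52 (limma adjusted p = 0.00654 and 0.00698). *Idh2*, mitochondrial isocitrate dehydrogenase, had 49.2, 37.3 and 9.26 FPKM in DOX and 74.8, 70.8 and 73.1 FPKM in DOX + K35. Its rise of 1.45 rested in part on B4, without which the limma adjusted p was 0.0577 as deposited. Without B4, 9 passed higher as deposited and 4 after scaling.

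All 4 genes tested of a list for urea synthesis and ammonia handling rose, with changes from 1.26 to 1.77. They were *Cps1*, the 1 enzyme of the urea cycle itself among them, the mitochondrial carriers *Slc25a13* and *Slc25a15*, which bring the cycle aspartate and ornithine, and *Glul*, glutamine synthetase, which fixes ammonia outside the cycle. *Cps1*, carbamoyl phosphate synthetase, the first enzyme of the cycle, had 264, 190.3 and 132 FPKM in DOX, 738, 622 and 579 FPKM in DOX + K35 and 447, 427 and 224 FPKM in Saline, and rose by 1.77 ± 0.39 (limma adjusted p = 0.00551). Every DOX + K35 library stood above every DOX and Saline library. Of 24 genes of amino acid breakdown, 20 passed higher as deposited and 9 rose (37.5%; median 1.33, 0.74 scaled).

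Within amino acid breakdown, *Gnmt*, a methyltransferase that uses up methyl groups of methionine, had 476, 286 and 125 FPKM in DOX and 1160.1, 1121 and 2236 FPKM in DOX + K35. C4 was the highest of the 6 libraries, and the rise was 2.47 ± 0.51 (limma adjusted p = 0.00516). *Tdo2*, the dioxygenase that opens the ring of tryptophan, rose by 1.52 ± 0.35 and *Dpys*, of pyrimidine breakdown, by 2.04 ± 0.55 (limma adjusted p = 0.00573 and 0.00768). *Tat*, tyrosine aminotransferase, passed as deposited (log2 change 0.95, limma adjusted p = 0.0193) and not after scaling (0.32, adjusted p = 0.232). Without B4, 14 passed higher as deposited and 6 after scaling.

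The number of fatty acid oxidation genes that passed depended on C4. Of 44 genes, 28 passed higher as deposited, 39 without C4 and 17 after scaling, and 17 rose (38.6%). *Cyp4a14*, an omega-hydroxylase of fatty acids, had 59.5, 33.1 and 10.01 FPKM in DOX and 173, 318 and 228 FPKM in DOX + K35 and rose by 3.04 ± 0.68 (limma adjusted p = 0.00563). *Etfdh*, which passes electrons from fatty acid oxidation to the respiratory chain, rose by 2.22 ± 0.53 (limma adjusted p = 0.00581).

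*Cpt1a*, which admits long-chain fatty acids to mitochondria, had 37.6, 26.5 and 23.0 FPKM in DOX and 66.2, 84.0 and 16.5 FPKM in DOX + K35, so that C4 was below all DOX libraries while C1 and C2 were above them. Its log2 change was 0.66 as deposited (limma adjusted p = 0.243) and 1.36 without C4 (adjusted p = 0.00666). Without B4, 18 passed higher as deposited and 8 after scaling.

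Genes of lipid synthesis rose and fell in shares not far from those of all genes (34.5% and 9.41%). Of 21 genes of fatty acid and triglyceride synthesis, 6 rose (28.6%) and 3 fell (14.3%), and the median was 0.62 as deposited. *Cd36*, a fatty acid uptake receptor, and *Apob*, the scaffold of secreted lipoproteins, rose by 1.66 ± 0.44 and 1.54 ± 0.43 (limma adjusted p = 0.00736 and 0.00916). *Fads3*, of the fatty acid desaturase family (GRCm38 chr19:10041569-10060110, plus strand), had 6.88, 9.01 and 5.88 FPKM in DOX, 2.55, 2.65 and 1.66 FPKM in DOX + K35 and 8.60, 9.57 and 6.22 FPKM in Saline. The DOX and Saline values overlapped, all DOX + K35 values lay below them, and the gene fell by 1.33 (SE 0.27, limma adjusted p = 0.00499) and by 1.83 after scaling. *Mlxipl*, the carbohydrate-responsive transcription factor of lipogenesis, had 194, 269.8 and 215 against 88.9, 56.1 and 171 FPKM and fell by 1.23 (limma adjusted p = 0.0149), and an exon of it overlaps *Gm43500* on the other strand. The library kit does not mark strand, so reads of such gene pairs cannot be told apart. *Fasn*, fatty acid synthase, did not pass, with 227, 175 and 36.6 FPKM in DOX and 199, 149 and 109 FPKM in DOX + K35, and its change of 0.38 as deposited turned to -0.24 after scaling (limma adjusted p = 0.601 and 0.647).

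Complete separation of the DOX + K35 from the DOX values was common over all genes. It held for 44.3% of genes on the higher and 15.4% on the lower side as deposited, and for 37.5% and 39.1% after scaling.

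**Figure D3:**
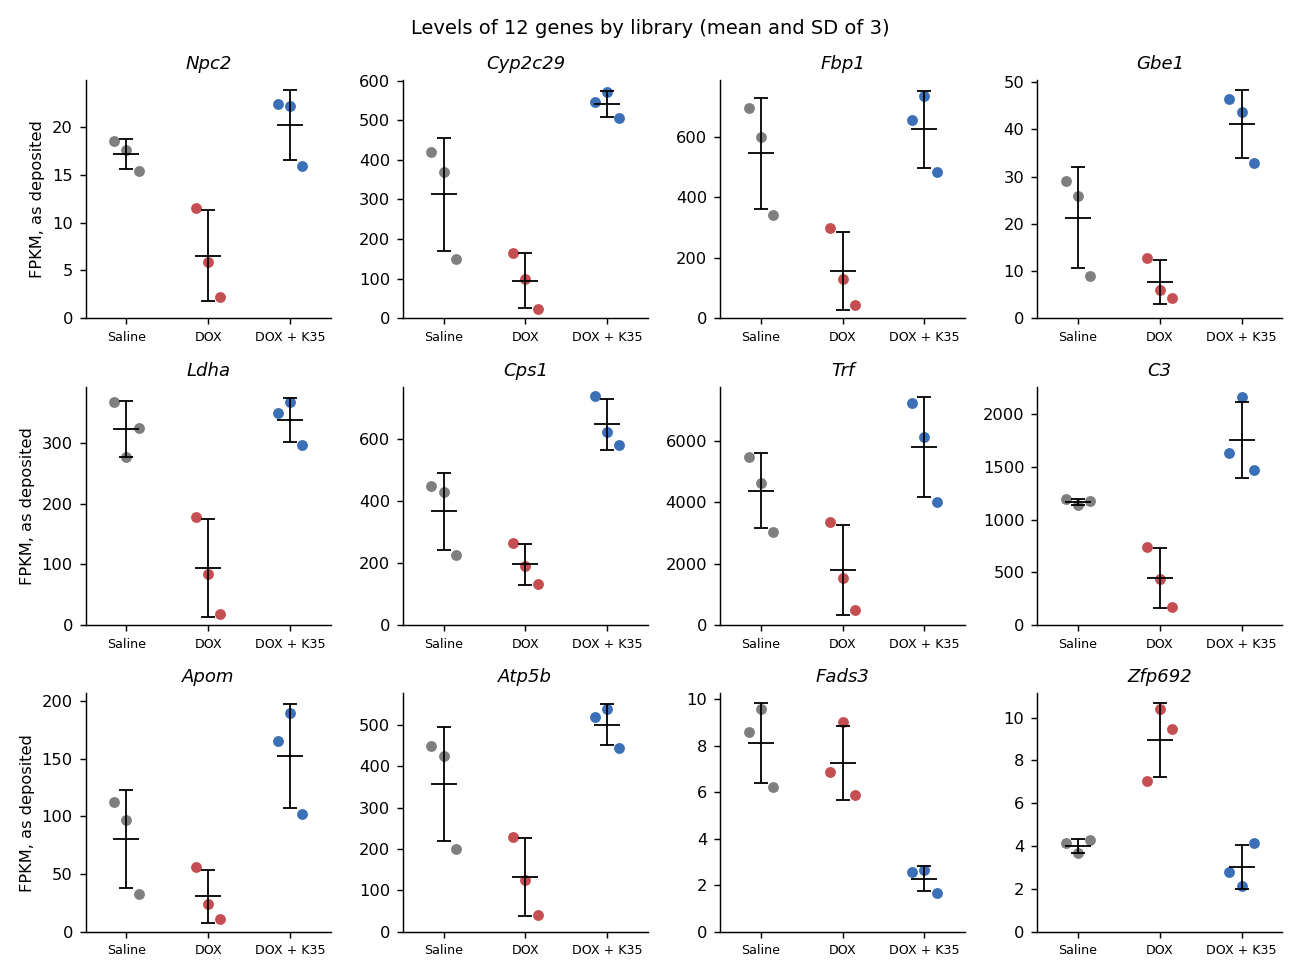
Deposited FPKM (y axes from 0) of 12 named genes in each library of Saline (grey), DOX (red) and DOX + K35 (blue), with the mean and SD of 3 libraries. For 10 genes all blue points lie above all red ones, while for *Fads3* and *Zfp692* they lie below, and the red points of most rising genes spread widely. Genes named for their rise or fall were picked for having no overlap, so for them the separation follows from the choice.

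Among drug-metabolizing enzymes, a somewhat larger share of the cytochrome P450 genes tested rose than of all genes (34.5%). Of 27 cytochrome P450 genes tested, 15 passed higher (55.6%, against 46.0% of all genes) and 1 lower as deposited, 20 passed higher without C4, and 12 rose (44.4%) while 1 fell (median 1.30, 0.82 scaled). *Cyp2c29*, a P450 of pericentral hepatocytes, had 164, 99.1 and 23.0 FPKM in DOX and 547, 572 and 506 FPKM in DOX + K35, and rose by 2.88 ± 0.63 (limma adjusted p = 0.00551). Its DOX values spread more than its DOX + K35 values, and reads of the closely related *Cyp2c* genes may be shared.

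*Cyp2e1*, which oxidizes ethanol and small solvents, had 2353, 1227 and 381 FPKM in DOX and 3382, 3546 and 3372 FPKM in DOX + K35, and rose by 1.73 ± 0.51 (limma adjusted p = 0.0107). *Cyp3a11*, a broad drug oxidase, rose by 1.68 ± 0.47 (limma adjusted p = 0.00914). *Cyp2b10*, the classic target of phenobarbital-type inducers, had 2.02, 0.737 and 0.321 FPKM in DOX and 7.03, 8.05 and 41.6 FPKM in DOX + K35. C4 carried most of its mean, and the change was 2.93 ± 0.67 as deposited and 2.16 ± 0.61 without C4 (limma adjusted p = 0.00567 and 0.01). Without B4, 12 passed higher as deposited and 7 after scaling.

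In most families of conjugating and other drug-handling enzymes, the share that rose was between 40% and 62.5%, against 34.5% of all genes. Of 9 UDP-glucuronosyltransferases, 7 passed higher as deposited and 5 rose (55.6%), with *Ugt3a2* at 2.15 ± 0.48 (limma adjusted p = 0.00563). Of 8 sulfotransferases, 4 rose (50%), with *Sult2a1* at 1.97 ± 0.51 (limma adjusted p = 0.00734). Of 8 carboxylesterases, flavin monooxygenases and epoxide hydrolases, 5 rose (62.5%), and of 15 aldehyde, alcohol and keto enzymes, 6 rose (40%). Of 6 glutathione S-transferases, 2 passed higher and 0 lower as deposited, but after scaling 2 passed higher and 3 lower, and the family median went from 0.19 to -0.34, so its direction depended on the scaling. *Gsta3* was the only member of it that rose (1.55 ± 0.42, limma adjusted p = 0.00822). Without B4, 2 of 9 UDP-glucuronosyltransferases and 1 of 8 sulfotransferases passed higher after scaling. So did 1 of 8 genes of the third list and 1 of 15 of the fourth. In that setting 17.7% of all genes passed higher, and only the share of the UDP-glucuronosyltransferases was above this.

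Several of these enzymes mark the hepatocytes around the central vein. Of 9 pericentral markers in the table, 6 rose (66.7%) and their median was 1.64 (1.01 scaled), and *Glul*, glutamine synthetase, rose by 1.64 ± 0.41 (limma adjusted p = 0.00643). Of 5 periportal markers, 1 rose (20%), with a median of 1.05 (0.46 scaled). The difference between the zones was not tested. In bulk tissue, more cells of a type and more RNA per cell cannot be told apart. Without B4, 5 passed higher as deposited and 2 after scaling.

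Of 11 genes of redox defence, 8 passed higher and 0 lower as deposited and 6 rose (54.5%), among them *Txnrd1*, thioredoxin reductase (1.41 ± 0.30, limma adjusted p = 0.00516), and *Prdx3*, a mitochondrial peroxiredoxin (1.46 ± 0.45, adjusted p = 0.0133). After scaling 2 of the 11 passed lower. Without B4, 5 passed higher as deposited, and after scaling 2 passed higher and 2 lower (against 17.7% and 30.1% of all genes).

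Among secreted proteins, most clotting genes rose, acute phase genes rose in about the share of all genes (34.5%) and apolipoproteins were divided. All 10 clotting genes tested passed higher as deposited and 8 rose (80%), with a median of 1.499 (0.87 scaled). *Fga*, the alpha chain of fibrinogen, had 895, 376 and 155 FPKM in DOX and 1255, 1612 and 1915 FPKM in DOX + K35, and rose by 2.07 ± 0.51 (limma adjusted p = 0.00611). *F2*, prothrombin, rose by 1.47 ± 0.42 (limma adjusted p = 0.00957). Without B4, 9 passed higher as deposited and 3 after scaling.

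*C3*, the central complement component, had 739.8, 440.1 and 169.7 FPKM in DOX, 1638, 2165 and 1469 FPKM in DOX + K35 and 1195, 1141 and 1173 FPKM in Saline. All DOX + K35 values were above those of the other groups, and *C3* rose by 2.18 ± 0.46 (limma adjusted p = 0.00516) in a list where 3 of 13 complement genes rose. *Trf*, the iron carrier transferrin, had 3356, 1521 and 493 against 7213, 6103 and 4011 FPKM and rose by 2.04 ± 0.56 (limma adjusted p = 0.00821). Among 17 acute phase genes, 6 rose (35.3%), including the protease inhibitors *Serpina3m* (2.35 ± 0.39) and *Serpina3n* (2.26 ± 0.51, limma adjusted p = 0.00496 and 0.00563), which belong to a family of near-identical copies. *Saa1*, an acute phase apolipoprotein, did not pass, and C1, C2 and C4 had 31.3, 26.5 and 13.4 FPKM against 13.7, 10.9 and 6.21 FPKM in DOX and 7.88, 12.5 and 1117 FPKM in Saline. Saline library A3 alone was high for it. Of 13 serpins, 3 rose (23.1%).

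Of 8 apolipoproteins, 2 rose (25%) and 1 fell. *Apom*, which carries sphingosine-1-phosphate, had 56.3, 24.4 and 11.5 FPKM in DOX and 165, 189 and 102 FPKM in DOX + K35 and rose by 2.495 ± 0.57 (limma adjusted p = 0.00567). *Apoc1*, a small apolipoprotein, had 2588, 3909 and 3205 against 1434, 1799 and 1509.8 FPKM without overlap and fell by 1.02 (limma adjusted p = 0.011), but with the length and GC trends removed its change was -0.16 (adjusted p = 0.49). *Apoa1*, the main protein of high-density lipoprotein, had a log2 change of -0.45 as deposited (limma adjusted p = 0.2) and -1.08 after scaling (adjusted p = 0.00844). The family median was -0.45 as deposited, -1.07 scaled and 0.14 with the trends removed, so its direction depended on the processing.

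In bile acid and iron handling, *Cyp39a1*, an oxysterol hydroxylase (GRCm38 chr17:43667425-43751431, plus strand), had the largest rise of all named genes. It had 4.49, 1.41 and 0.587 FPKM in DOX and 14.2, 14.7 and 57.2 FPKM in DOX + K35, and rose by 3.12 ± 0.55 (limma adjusted p = 0.00496) and by 2.49 without C4. C4 was the highest of the 6 libraries, and C1 and C2 also lay above all DOX libraries. *Cyp7a1*, the rate-limiting enzyme of bile acid synthesis, did not pass, with 79.1, 82.5 and 61.2 FPKM in DOX and 104, 93.5 and 23.4 FPKM in DOX + K35, where C4 was the lowest of the 6. *Hamp2*, a hepcidin, had 382, 691 and 489.8 against 171, 228 and 61.6 FPKM and fell by 1.91 (limma adjusted p = 0.0102), though with the length and GC trends removed the adjusted p was 0.18. *Cpox* and *Ppox*, consecutive enzymes of haem synthesis, went opposite ways, with changes of 1.80 ± 0.37 and -0.71 ± 0.24 (limma adjusted p = 0.00516 and 0.0224).

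Most genes of protein production and quality control rose. Of 21 translation factors, 18 rose (85.7%) and 0 passed lower as deposited, with a median of 1.21 (0.76 scaled). *Eef2*, the factor that moves the ribosome along, had 285, 176 and 56.6 FPKM in DOX and 508, 499 and 679.6 FPKM in DOX + K35 and rose by 1.96 ± 0.49 (limma adjusted p = 0.0063). Of 14 tRNA synthetases, 13 rose (92.9%), for example *Iars* for isoleucine (1.55 ± 0.28, limma adjusted p = 0.00496). Of 12 cytosolic ribosomal protein genes, 7 rose (58.3%), and *Rpl3* was at 1.92 ± 0.51 (limma adjusted p = 0.00747). *Rplp0*, of the ribosomal stalk, rose by 1.60 ± 0.46, *Eif4g1*, an initiation scaffold, by 1.62 ± 0.38 and *Mrpl12*, of the mitochondrial ribosome, by 1.30 ± 0.40 (limma adjusted p = 0.00957, 0.00578 and 0.0137). Of 17 mitochondrial ribosomal protein genes, 5 rose (29.4%), and 8 passed lower after scaling. Without B4, *Mrpl12* had a limma adjusted p of 0.0518, and 13 translation factors, 5 tRNA synthetases and 1 ribosomal protein gene passed higher after scaling. In that setting 17.7% of all genes passed higher. The share of the cytosolic ribosomal protein genes (1 of 12) was below this, and those of the translation factors and tRNA synthetases were above it.

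Of 22 genes of endoplasmic reticulum folding, 15 rose (68.2%), and of 18 heat shock proteins and cochaperones, 14 rose (77.8%). *Hspa9*, the mitochondrial Hsp70, had 62.5, 31.6 and 12.8 FPKM in DOX and 153, 147 and 120.1 FPKM in DOX + K35 and rose by 2.20 ± 0.54 (limma adjusted p = 0.00598). *Hspa5*, the chaperone BiP, passed as deposited (1.45 ± 0.52, limma adjusted p = 0.028) and not after scaling or without C4. Of 17 proteasome subunits, 14 rose (82.4%), with a median of 1.29 (0.70 scaled). Without B4, 9 folding genes, 7 heat shock genes and 9 proteasome genes passed higher after scaling.

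Most lysosome and vesicle traffic genes rose. Of 29 lysosome and autophagy genes, 26 passed higher and 0 lower as deposited and 20 rose (69%). *Lipa*, the lysosomal acid lipase, rose by 2.04 ± 0.51, *Psap*, the precursor of saposins, by 1.93 ± 0.43 and *Lamp1*, a membrane protein of lysosomes, by 1.90 ± 0.54 (limma adjusted p = 0.0066, 0.00561 and 0.00927). *Sqstm1*, the autophagy receptor p62, had 106, 66.1 and 31.6 FPKM in DOX, 153, 154 and 160.4 FPKM in DOX + K35 and 169, 161 and 109.7 FPKM in Saline and rose by 1.34 ± 0.40 (limma adjusted p = 0.0119). Of 48 vesicle traffic genes, 32 rose (66.7%) and 1 fell, and *Tmed7*, of the secretory pathway, rose by 2.24 ± 0.45 (limma adjusted p = 0.00497) and *Rab7*, a small GTPase of late endosomes, by 1.26 ± 0.35 (adjusted p = 0.00864). Of 16 ABC transporters, 7 rose (43.8%), and *Abcb4*, which exports phospholipid into bile, passed as deposited (0.85 ± 0.31, limma adjusted p = 0.0303) but not after scaling (adjusted p = 0.285) or without B4 (adjusted p = 0.07). Of 75 solute carriers, 25 rose (33.3%) and 5 fell, and after scaling 27 passed higher and 28 lower. Without B4, 11 lysosome and 17 vesicle genes passed higher after scaling.

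The respiratory chain divided by genome and by subunit. All 13 mitochondrially encoded genes tested fell, with changes from -1.80 to -1.57 and a median of -1.69 (-2.31 scaled). With the length and GC trends removed, 9 of the 13 passed lower and 1 higher, with a median of -1.37. The one higher was *mt-Atp8*, of the ATP synthase, at 0.88 (limma adjusted p = 0.0143). The complex I subunits *mt-Nd3*, *mt-Nd4l* and *mt-Nd6* did not pass there, at 0.17, -0.46 and -0.39 (limma adjusted p = 0.535, 0.119 and 0.225). *mt-Co1*, a catalytic subunit of complex IV, had 50050.0, 77627 and 129662 FPKM in DOX, 20398, 21246 and 30695 FPKM in DOX + K35 and 29411, 33606 and 52992 FPKM in Saline. All DOX values except that of B1 lay above Saline library A3, and the DOX + K35 values did not overlap with DOX. The fall was 1.75 (SE 0.37, limma adjusted p = 0.00526). Quantile normalization, which gives the libraries the same distribution of values, brought the list median to -0.05. A gene that keeps its rank gets the same value in each library there. That setting therefore cannot show a fall of the most abundant genes, and nothing is concluded from it here.

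Of 37 nuclear subunits, 9 rose (24.3%), 3 fell and the other 25 had a median of -0.37 as deposited. After scaling 27 passed lower. Of the 9 that rose, 8 were *Sdha* (2.31), *Atp5b* (2.23), *Sdhd* (2.003), *Atp5a1* (1.99), *Cox7a2l* (1.82), *Ndufv1* (1.44), *Ndufs1* (1.38) and *Cyc1* (1.18). They include both tested subunits of complex II, the alpha and beta chains of the ATP synthase head, and core subunits of complex I. *Atp5b* had 229, 126 and 40.6 FPKM in DOX and 518, 539 and 444 FPKM in DOX + K35 without overlap (limma adjusted p = 0.00594). The 3 that fell were *Ndufa5* (-1.03), *Atp5e* (-0.90) and *Ndufv3* (-0.76). The transcripts of the 9 were 1129 to 2900 bases long and those of the 3 were 875 to 2021. Those of the other 25 were 419 to 4715, where many were shorter than all of the 9 and a few were longer. With the length and GC trends removed, the median of all 37 was -0.03. In that setting 11 of the 37 passed higher and 12 lower. All 9 that rose were among the higher ones (0.48 for *Ndufs1* to 1.58 for *Sdhd*). All 3 that fell were among the lower ones (-1.02 for *Ndufa5* to -1.67 for *Atp5e*). The part of length in the split between subunits was not tested.

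**Figure D4:**
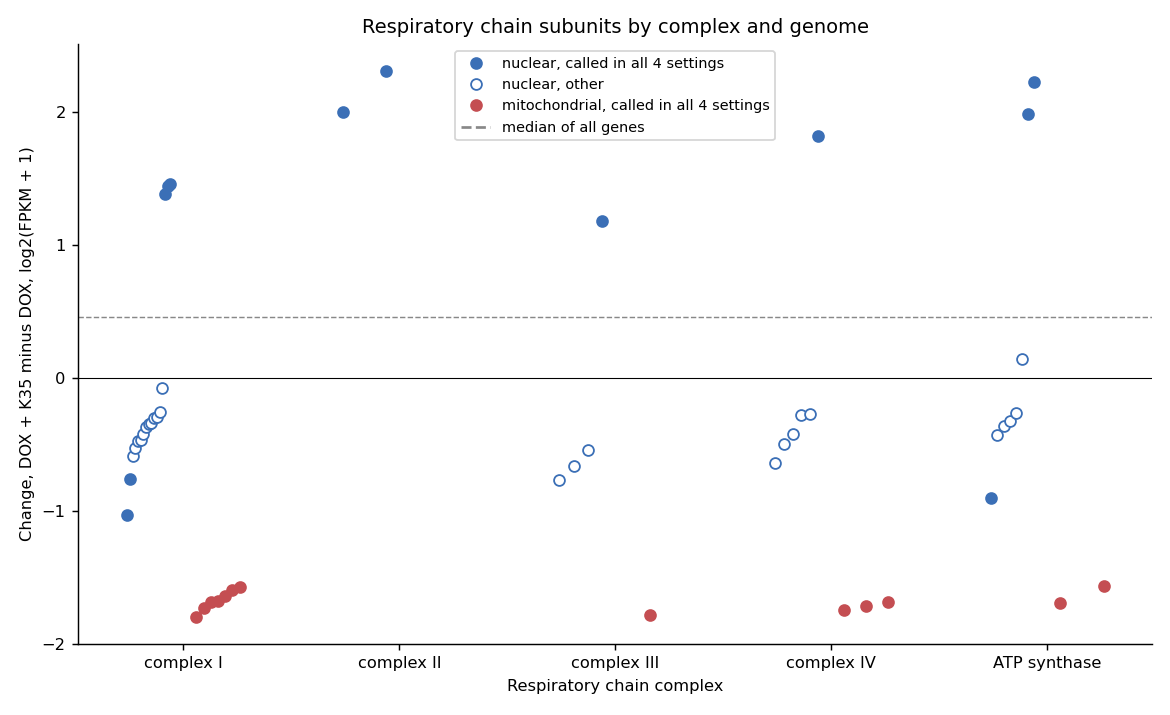
Change of DOX + K35 minus DOX on the log2(FPKM + 1) scale as deposited (y axis) for each respiratory chain subunit, grouped by complex (x axis), with nuclear genes in blue, mitochondrial genes in red and filled points for genes called in all 4 settings. The mitochondrial genes lie between -1.80 and -1.57, whereas the 9 nuclear subunits that rose lie between 1.18 and 2.31. These 9 were picked for being called higher, so their place above the remaining nuclear ones follows in part from the choice.

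Zinc finger genes fell in a larger share than all genes (9.41%), whereas the share of splicing genes that fell was close to it. Of 69 zinc finger genes, 1 passed higher and 16 lower as deposited, 29 passed lower without C4 and 61 after scaling, and 15 fell (21.7%). *Zfp692* (GRCm38 chr11:58307069-58314627, plus strand) had 7.04, 10.4 and 9.46 FPKM in DOX, 2.79, 2.14 and 4.13 FPKM in DOX + K35 and 4.14, 3.66 and 4.28 FPKM in Saline, so all DOX values were above those of the other groups. It fell by 1.32 (SE 0.27) and *Zfp276* by 1.34 (limma adjusted p = 0.00497 and 0.00842). *Zfp664* was the only member that rose (0.82 ± 0.21). Of 68 splicing and RNA-binding genes, 24 rose (35.3%) and 6 fell (8.82%), both close to the shares of all genes, and after scaling 25 passed higher and 37 lower. *Snrpb*, a core protein of splicing particles, rose by 1.65 ± 0.37 while *Luc7l2*, which works at the start of introns, had 75.8, 97.0 and 81.5 against 37.1, 24.4 and 65.1 FPKM and fell by 1.09 (limma adjusted p = 0.00561 and 0.02). Newly assembled loci without a gene name were also lower by their median, which was -0.58 as deposited and -0.99 scaled. Of 188 tested, 65 fell and 9 rose, against 9.41% and 34.5% of all genes.

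Signalling and clock genes held a few clear changes. *Fkbp5*, a target of the glucocorticoid receptor, had 4.68, 2.29 and 2.42 FPKM in DOX and 11.6, 13.2 and 52.3 FPKM in DOX + K35. All DOX + K35 libraries were above DOX and C4 was far above its partners, and the change was 2.41 ± 0.44 as deposited and 1.74 ± 0.29 without C4 (limma adjusted p = 0.00496 and 0.00557). *Klf9*, a transcription factor under glucocorticoid and clock control, rose by 1.63 ± 0.38 (limma adjusted p = 0.00578). *Foxo1*, the insulin-restrained activator of gluconeogenic genes, had 1.66, 1.54 and 1.59 FPKM in DOX and 4.65, 5.61 and 4.18 FPKM in DOX + K35 and rose by 1.16 ± 0.17 (limma adjusted p = 0.00496). *Irs2*, an adaptor of the insulin receptor, did not pass, with 3.57, 2.501 and 3.97 FPKM in DOX and 5.52, 3.65 and 5.43 FPKM in DOX + K35 and a change of 0.43 as deposited and -0.08 after scaling (limma adjusted p = 0.235 and 0.816). *Prkaa2*, a catalytic subunit of AMP-activated kinase, rose by 1.25 ± 0.29 (limma adjusted p = 0.00578). Of 10 clock genes, *Cry1* was among 2 that rose (1.36 ± 0.27) and *Per3* was the only one that fell (-0.95 ± 0.29, limma adjusted p = 0.00497 and 0.0127).

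The senescence marker *Cdkn1a*, which encodes p21, was not lower in DOX + K35. It had 4.19, 3.51 and 1.98 FPKM in DOX, 6.03, 4.31 and 17.3 FPKM in DOX + K35 and 0.786, 0.674 and 0.958 FPKM in Saline. All DOX + K35 values were above all DOX values, and C4 was the highest. The change was 1.10 ± 0.38 as deposited (limma adjusted p = 0.0224), 0.60 after scaling (adjusted p = 0.125), and 0.57 without C4 (adjusted p = 0.0938). Without B4 its adjusted p was 0.0975. *Mdm2*, a p53 target that restrains p53, had 9.92, 11.3 and 10.8 FPKM in DOX and 7.72, 5.62 and 9.27 FPKM in DOX + K35 and passed lower after scaling (-1.04, limma adjusted p = 0.00748) but not as deposited (-0.47, adjusted p = 0.0959). Of 16 p53 targets tested, 3 passed higher and 1 lower as deposited (against 46.0% and 10.7% of all genes). After scaling 1 passed higher and 8 lower (against 37.8% and 41.2% of all genes). *Ccnd1*, the cyclin of entry into the cell cycle, had 14.9, 7.11 and 4.84 FPKM in DOX and 44.7, 22.2 and 1.37 FPKM in DOX + K35, so C1 and C2 were the highest and C4 the lowest of the 6. It passed without C4 (1.84, limma adjusted p = 0.00583) and not with it (0.58, adjusted p = 0.514).

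The share of interferon-stimulated genes that fell was below that of all genes, and the sign of their median as deposited rested on C4. Of 43 tested, 3 fell (6.98%, against 9.41%) and 0 rose (against 34.5%), and 15 passed lower after scaling (34.9%, against 41.2%). The list median was -0.15 as deposited and 0.29 without C4, with 3 passing higher and 3 lower. Their summed FPKM was 381, 376 and 223 in DOX and 433, 407 and 155 in DOX + K35, so that C1 and C2 were above all DOX libraries and C4 below them. *Oas2*, a sensor enzyme for double-stranded RNA, had 3.56, 6.02 and 2.69 FPKM in DOX and 1.28, 1.14 and 0.619 FPKM in DOX + K35, and fell by 1.30 (limma adjusted p = 0.00567). *Stat2*, which carries the interferon signal to the nucleus, fell by 1.02 (limma adjusted p = 0.024). *Isg15*, a ubiquitin-like product of these genes, had 18.6, 24.0 and 13.7 against 11.96, 12.1 and 1.31 FPKM, with C4 far below the others, and its change of -1.40 did not pass as deposited (limma adjusted p = 0.0701). All 7 genes of MHC class I and II tested passed lower after scaling (against 41.2% of all genes) and 2 fell (against 9.41%). *B2m*, the light chain of class I, had a change of -0.56 as deposited (limma adjusted p = 0.175) and -1.19 after scaling (adjusted p = 0.0134), and *Nlrc5*, an activator of class I genes, fell (-0.93 ± 0.30, limma adjusted p = 0.0157).

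Markers of other cells of the liver were followed beside these changes, and their part in the results was not tested. The summed FPKM of 12 of 28 Kupffer cell markers was 92.7, 78.7 and 37.9 in DOX and 129.7, 146 and 95.2 in DOX + K35, and 7 passed higher as deposited but 0 after scaling. In the erythroid list (6 of 26 tested), the sum was 842, 936 and 1151 in DOX and 390.4, 611 and 89.4 in DOX + K35, with C4 the lowest, and 2 fell. *Hbb-bt*, an adult beta globin, had 119.7, 109.5 and 158 FPKM in DOX and 47.0, 72.4 and 6.81 FPKM in DOX + K35 and fell by 2.09 (limma adjusted p = 0.0127) and by 1.11 without C4. *Hba-a1*, an alpha globin, fell by 1.90 (limma adjusted p = 0.0121) and by 1.05 without C4. Of 9 tested of 29 stellate and fibroblast markers, *Fn1*, which hepatocytes also secrete, was the 1 that rose (1.55 ± 0.35) and *Acta2*, smooth muscle actin, the 1 that fell (-0.80 ± 0.28, limma adjusted p = 0.00567 and 0.0259). The summed FPKM of the 9 was 153, 121 and 76.3 in DOX and 257, 279 and 210.2 in DOX + K35 without overlap (exact two-sided permutation p = 0.1, the smallest possible), of which *Fn1* gave 109, 73.3 and 48.4 and 222, 244 and 185, while the median change of the list was -0.07. *Col1a1*, a chain of type I collagen, had 1.67, 2.13 and 0.751 FPKM in DOX and 1.93, 1.68 and 0.63 FPKM in DOX + K35 and did not pass (-0.07 as deposited, 0.19 without C4, limma adjusted p = 0.825 and 0.489). The summed FPKM in DOX and in DOX + K35 of 6 of 27 endothelial markers were 48.4, 44.8 and 22.8 and 48.1, 44.0 and 64.0, those of 3 of 31 lymphocyte markers 7.31, 9.25 and 7.85 and 5.10, 5.52 and 3.54, those of 1 of 17 neutrophil markers 2.06, 3.46 and 2.79 and 1.26, 1.37 and 2.64 and those of 1 of 14 cholangiocyte markers 5.78, 5.83 and 4.39 and 4.23, 4.13 and 5.82. The hepatocyte identity of the samples rests on 5 of 13 markers in the table, which summed to 18828, 17527 and 11460.5 and 15083, 15747 and 12635 FPKM.

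Major urinary proteins, which the liver secretes, depended on C4, with 3 of 5 passing lower as deposited and 1 without C4. The 5 genes summed to 1489.7, 776 and 1227 FPKM in DOX and 653, 1031 and 4.30 FPKM in DOX + K35. C1 lay just below the DOX range and C2 within it, and C4 was almost without these transcripts. *Mup14* had 249, 199.7 and 355 FPKM in DOX and 119, 134 and 1.10 FPKM in DOX + K35, and its change was -3.01 ± 1.09 as deposited and -1.04 ± 0.38 without C4 (limma adjusted p = 0.0289 and 0.0278). Without B4 its adjusted p was 0.091, and reads of these near-identical genes may be shared.

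**Figure D5:**
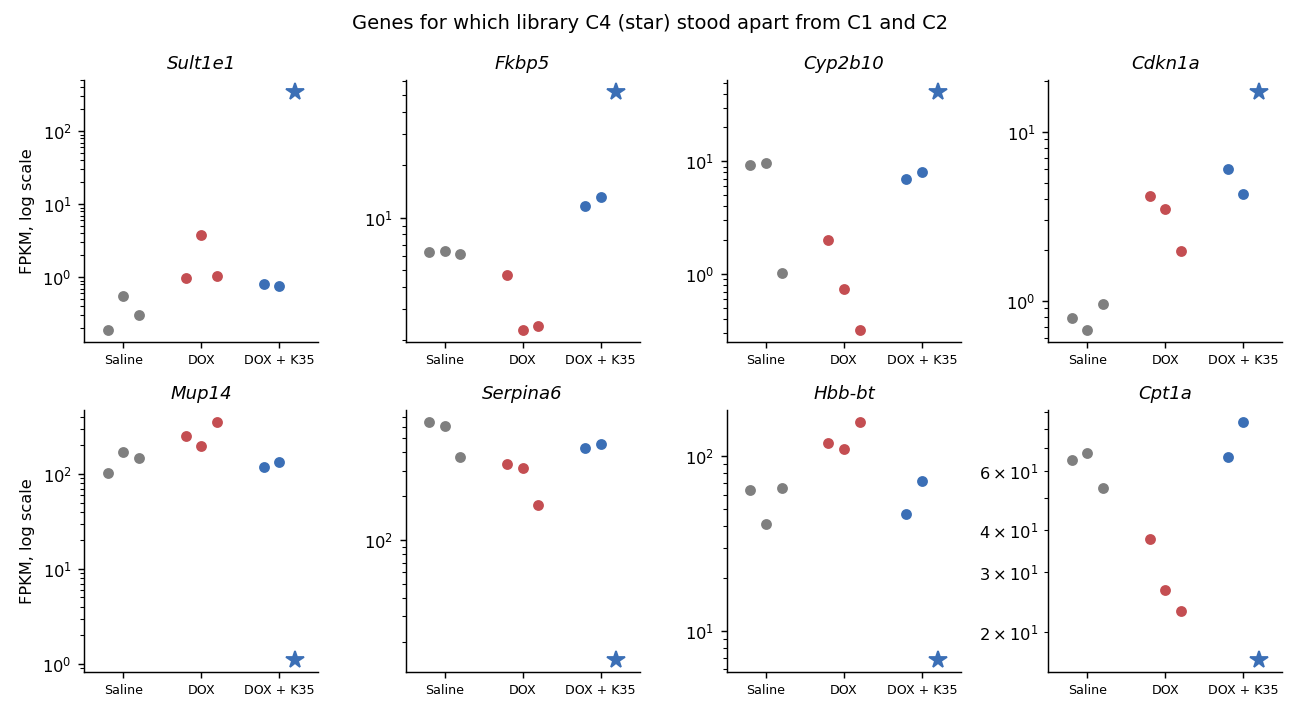
Deposited FPKM on a log axis (y axes) of 8 genes chosen after their values were seen for the distance of C4 (star) from C1 and C2, in the libraries of Saline (grey), DOX (red) and DOX + K35 (blue). C4 is the highest of the 9 libraries shown for *Sult1e1*, *Fkbp5*, *Cyp2b10* and *Cdkn1a*, and the lowest for *Mup14*, *Serpina6*, *Hbb-bt* and *Cpt1a*.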

How the data were processed

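Liver RNA of 4 groups of 3 libraries was poly-T selected and sequenced. The submitters' processing notes name HISAT2 and GRCm38; counter, annotation and strand setting were not given in the sources used here. The authors deposited 1 normalized value per gene and library, without naming its unit, and it was taken as FPKM because the values were not whole numbers and their sums differed between libraries, which leaves the unit an assumption. The table holds a selection of genes made by the authors and no counts, and the depth is unknown. Adjusted p-values were computed within this selection, which was made on the same series, and do not bound the share of false calls. Rows with a mean of at least 1 were tested on log2(FPKM + 1) with limma 3.58.1 (R 4.3.3, trended variance, 4 groups in 1 fit) and Benjamini-Hochberg adjustment, and the script was tested on simulated data. Median-ratio factors came from the tested rows. The scaling centres the median of these rows, which were selected as changing, and need not centre the liver transcriptome. With factors from all rows of the deposited selection the median change was 0.21, and -0.014 with those used here. Length and GC trends (GENCODE M21) were removed within each library by lowess with a span of 0.3. Lists and tests were chosen with earlier results of these data known. Named genes were the landmarks of 58 lists whatever their result, and, among genes called in all 4 settings without overlap between groups, up to 2 rises and 2 falls per list and the 10 largest of each overall. *Idi1*, *Sqle*, *Pmvk*, *Slc25a15*, the remaining respiratory chain subunits and the genes picked for C4 were added after their values were seen. Some genes that the rule names are not reported here. Of 145 genes named by the rule, 48 share exonic sequence with another gene. FPKM is relative, so it moves when a few abundant genes take more of a library.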

Additional observations from a re-analysis of the deposited data

How the results depend on the processing

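No paired analysis was possible because the DOX and DOX + K35 columns share only replicate number 1 in the labels. The alternatives on length and GC content, on factors from all rows of the table and on scaling without B4 were chosen after seeing the data. Of 156 genes followed, 144 passed as deposited, 69 of these passed in every alternative run and 139 never changed sign; 41 no longer passed after scaling without B4, 29 with the length and GC trends removed and no C4, 19 with both trends removed, 19 without C2, 17 without C1, 15 without B3 and 14 with the 20 most abundant genes left out. The number of rule-named genes that passed (131) and of lists above the median of all genes (40) stayed within 1.5 times throughout; leaving out 1 library gave 115 to 133 genes and 38 to 40 lists.

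Genes higher (1527) numbered 904 with the 20 most abundant genes left out, 1007 with the GC trend removed, 955 with both trends removed, 1005 with both removed and no C4, and 586 after scaling without B4; leaving out 1 library gave 1253 (B4) to 1590 (B1). Genes lower (356) numbered 1366 after scaling, 1371 after scaling without C4, 1059 after quantile normalization, 1411 with the 20 most abundant genes left out, 895 with mitochondrially encoded genes left out, 1076, 992 and 943 with the length, the GC and both trends removed, 968 with both removed and no C4, 1127 with factors from all rows, 998 after scaling without B4, 103 at an adjusted p under 0.01 and 111 with an absolute log2 change of at least 1; leaving out 1 library gave 159 (C2) to 556 (C4). The median change of all genes (0.46) was -0.014 after scaling, 0.081 after scaling without C4, 0.12 after quantile normalization, 0.21 with factors from all rows, 0.24 with mitochondrially encoded genes left out, -0.077 with the 20 most abundant genes left out, 0.092 with no filter on the mean, 0.17, 0.10 and 0.12 with the length, the GC and both trends removed, 0.15 with both removed and no C4, and -0.045 after scaling without B4; leaving out 1 library gave 0.25 (B4) to 0.62 (B1). Among 1455 list medians under the alternatives, 1067 moved by less than the spread between libraries and 388 by more. The cause of these shifts was not tested.

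The sign changed or the change became 0 for 12 of these genes, of which *Cdkn1a*, *mt-Co1*, *mt-Atp6*, *mt-Atp8* and *mt-Nd3* had passed. *Cdkn1a* (1.10) was -0.0229 with both removed and no C4. *mt-Co1* (-1.75) was 0 after quantile normalization, a setting that cannot show a change of genes that keep their rank. *mt-Atp6* (-1.69) was also 0 after quantile normalization, with the same limit. *mt-Atp8* (-1.57) was 0.12 after quantile normalization, 0.22 with the length trend removed, 0.88 with both trends removed and 0.96 with both removed and no C4. *mt-Nd3* (-1.58) was 0.17 with both trends removed and 0.19 with both removed and no C4. *Apoa1* (-0.45) was 0.37 after quantile normalization and 0.0297 with both removed and no C4. *Cpt1a* (0.66) was -0.0654 after quantile normalization and -0.0501 with the 20 most abundant genes left out. *Cyp7a1* (-0.26) was 0.42 without C4, and leaving out 1 library gave -0.64 to 0.42. *Ccnd1* (0.58) was -0.0450 with the 20 most abundant genes left out, -0.0525 with both trends removed, -0.0572 after scaling without B4 and -0.29 without C1, and leaving out 1 library gave -0.29 to 1.84. *Col1a1* (-0.07) was 0.19 without C4, 0.00553 with the GC trend removed, 0.0644 with both trends removed, 0.43 with both removed and no C4 and 0.11 without B3, and leaving out 1 library gave -0.31 to 0.19. *Fasn* (0.38) was -0.24 after scaling, -0.35 after quantile normalization, -0.34 with the 20 most abundant genes left out, -0.79 after scaling without B4 and -0.43 without B4, and leaving out 1 library gave -0.43 to 0.87. *Irs2* (0.43) was -0.0833 after scaling, -0.13 after scaling without C4 and -0.16 with the 20 most abundant genes left out. Depth cannot be read from these files, so whether it limits low genes was not tested.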

Other observations

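Library C4 differed from C1 and C2 in more than the genes named above. It lay above both by at least 2 on the log2(FPKM + 1) scale for 13 genes and below both for 38, while C1 stood apart in this way for 1 gene above and 0 below, and C2 for 0 above and 3 below. The genes here were chosen after their values were seen. *Sult1e1*, the oestrogen sulfotransferase, had 0.804, 0.751 and 349 FPKM in C1, C2 and C4, and at most 3.77 FPKM in every other library of the series. The immediate-early and stress genes *Gadd45b* (2.24, 1.13 and 20.4 FPKM), *Dusp1* (7.30, 3.64 and 33.2 FPKM) and *Id1* (4.89, 5.19 and 31.8 FPKM) were also highest in C4 among the DOX + K35 libraries, as were the acute phase gene *Lrg1* (197, 229 and 1028 FPKM) and the chemokine *Cxcl13* (0.546, 0.807 and 11.6 FPKM). On the other side, *Serpina6*, the plasma carrier of corticosteroids, had 430.5, 459 and 15.0 FPKM, the plasma protein *A1bg* 66.9, 156 and 2.44 FPKM and the desaturase *Fads2* 313, 337 and 25.4 FPKM. For *Fads2* the log2 change against DOX was 1.34 with C4 (limma adjusted p = 0.15) and 2.55 without it (adjusted p = 0.00557). What set this library apart was not tested.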
